A study of Mus musculus with 36 samples.

Results

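Mature splenic natural killer (NK) cells of wild-type (WT) mice that carried none of the receptors used in the sort were compared with NK cells that carried Ly49I alone. The comparison uses 6 of the 36 RNA sequencing libraries of the study, 3 of each kind. TN cells were Ly49C-negative, Ly49I-negative and NKG2A-negative. SP cells were Ly49C-negative, Ly49I-positive and NKG2A-negative. Both came from spleens of WT mice (B2m+/+, C57BL/6) and had been sorted as CD27-negative and CD11b-positive, the phenotype of late NK cell maturation. The ages and sexes of the mice are not given in the labels used here. Further libraries of the same table serve as a setting for the comparison: TP cells, positive for all 3 receptors, and the same TP, SP and TN sorts from B2m-/- mice (knockout, KO), with 3 libraries each. The labels call the replicates biological without saying that each number is a separate mouse, so p-values measure the spread between these libraries.

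Ly49C, Ly49I and NKG2A are inhibitory receptors of NK cells that bind MHC class I molecules on other cells. In C57BL/6 mice Ly49C and Ly49I are receptors for self class I, and NKG2A, paired with CD94, binds the class I-like molecule Qa-1. NK cells that carry a receptor for self class I respond strongly when their activating receptors are engaged, a property called education or licensing, while cells without one respond weakly. B2m encodes the light chain that most class I molecules need to reach the cell surface, so cells of B2m-/- mice offer these receptors few ligands.

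The sort separates cells by the product of 1 Ly49 gene while a closely related gene stays low in both groups. Klra9 encodes Ly49I and Klra3 encodes Ly49C. The sequence upstream of each gene is shown because Klra9 had a mean of 928 TPM and Klra3 of 1.40 TPM in the same SP libraries. Both stretches are from RefSeq on GRCm38.p6 and lie on the minus strand, Klra9 at chr6:130193233-130193356 and Klra3 at chr6:130337730-130337853. They run from 244 to 121 bases before the annotated start of Klra9, and from 227 to 104 bases before that of Klra3. Capitals mark the 5 of 124 positions at which the genes differ.
Klra9: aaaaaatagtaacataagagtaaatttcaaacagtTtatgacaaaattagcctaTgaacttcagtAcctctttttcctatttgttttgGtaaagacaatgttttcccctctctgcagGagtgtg
Klra3: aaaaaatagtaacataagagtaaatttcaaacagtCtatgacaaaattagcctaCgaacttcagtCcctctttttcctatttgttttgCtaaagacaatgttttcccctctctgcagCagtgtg
The stretches are 95.97% identical. Over the whole local alignment of the promoter windows, 224 of 233 columns were identical and 3 were gaps. The reference build differs from GRCm39, which the submitters' processing notes name, so no other coordinates are given.

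Values are TPM, a relative transcript abundance, which divide the reads of a gene by its length and scale each library to a fixed total. TN libraries summed to between 934292 and 945696 TPM and SP libraries to between 940670 and 942996 TPM. TPM keep no record of the number of reads, so the sequencing depth is unknown and precision comes from the spread between libraries. Genes above 0 numbered 12302 to 13268 in TN and 12290 to 13418 in SP libraries. Pearson correlations across genes between libraries of a group ran from 0.904 to 0.930, and those between libraries of different groups from 0.904 to 0.938. The 2 ranges overlapped. Such correlations span all genes at once, so they cannot show whether the groups differed in a part of the genes. Mitochondrial protein genes made up 1.56% to 1.69% of TPM in TN and 1.58% to 1.73% in SP libraries.

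An exact 0 in these tables can be a failed estimate. ND3, which encodes a subunit of respiratory complex I that every cell uses, was listed at 0 in all 3 TN libraries and at 368, 527 and 199 TPM in SP libraries. Of 13 mitochondrial protein genes, 4 were listed at 0 in at least 1 of the 18 libraries of the table. COX3 was above 0 but only at 0.04 to 0.30 TPM in all 18, where COX1 was at 4055 to 5419 TPM. Low values above 0 can therefore be uncertain too, and the mitochondrial share given above sums these values as listed. Genes with a TN or SP library at 0 are given here by library, without a mean.

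The genes of the sort came first as a check of the labels. Klra9 was at 966, 805 and 1013 TPM in the SP libraries and at 82.5, 87.7 and 77.1 TPM in the TN libraries. The groups were far apart, with means of 928 ± 109 and 82.4 ± 5.31 TPM (SD, n = 3 each), an 11.3-fold difference in the direction of the sort. Klra9 RNA was nonetheless not absent from cells sorted as Ly49I-negative. Of the 50-base stretches of its longest transcript, 32.4% also occur in transcripts of other genes, 13.6% in Klra3 and 13.5% in Klra10, and whether this contributes to the TN level was not tested. Klra3 was at 0.23, 2.48 and 1.61 TPM in TN and 2.87, 0.18 and 1.16 TPM in SP libraries. Klrc1, which encodes NKG2A, was at 13.1, 29.2 and 25.2 TPM in TN and 21.0, 26.2 and 29.1 TPM in SP libraries. Both groups overlapped for these genes, as the labels require of cells negative for Ly49C and NKG2A. Of the 50-base stretches of Klrc1, 40.3% occur in other genes, 38.1% in Klrc2, so the Klrc1 level is uncertain.

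The CD27 and CD11b gates were shared by both groups. Cd27, which encodes a TNF receptor family member of less mature NK cells, was at 170, 194 and 205 TPM in TN and 114, 122 and 113 TPM in SP libraries. All TN libraries were above all SP libraries, and the difference of 0.69 ± 0.13 (SE) on the log2(TPM + 1) scale was called (adjusted p = 0.0312). This call was lost in 5 of the 6 fits that left out 1 library, with adjusted p up to 0.0873, and only the fit without TN replicate 1 kept it. Itgam, which encodes CD11b, was at 542 ± 27.7 TPM in TN and 642 ± 52.2 TPM in SP cells (SD, n = 3), and its log2 difference of -0.24 was not called (adjusted p = 0.196). Of the 50-base stretches of Itgam, 72.4% also occur in Gm49368, so its values are uncertain. B2m was at 2915 to 3009 TPM in TN and 3056 to 3317 TPM in SP libraries of WT mice, against 94.8 to 128 TPM in TN and 106 to 110 TPM in SP libraries of KO mice, the direction that the genotype labels require.

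Few genes separated TN from SP cells beyond the spread between libraries. Of 12018 genes whose mean reached 1 TPM, limma called 46 at a Benjamini-Hochberg adjusted p under 0.05. This is 0.383% of the genes tested. In TN cells 22 of them (0.183%) were higher and 24 (0.2%) were lower. A change of at least 2-fold on the log2(TPM + 1) scale was seen for 21, with 8 rises and 13 falls. An unadjusted p under 0.05 was reached by 1452 genes, or 12.1%, and the 3 TN and 3 SP libraries did not overlap for 1368 genes, or 11.4%. Since 3 libraries against 3 allow an exact two-sided permutation p of 0.1 at best, the calls depend on the limma model and the spread it shares between genes and groups. Fits with fewer libraries called fewer genes in most cases. Fitting the 2 groups alone called 6 genes, 4 of them among the 46 (Klra9, Klrg1, Klra13-ps and Ly6c2). In that fit 755 of 11885 genes had an unadjusted p under 0.05. The 9 WT libraries alone gave 15 calls, leaving out SP replicate 2 gave 23 and leaving out SP replicate 3 gave 29.

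**Figure D1:**
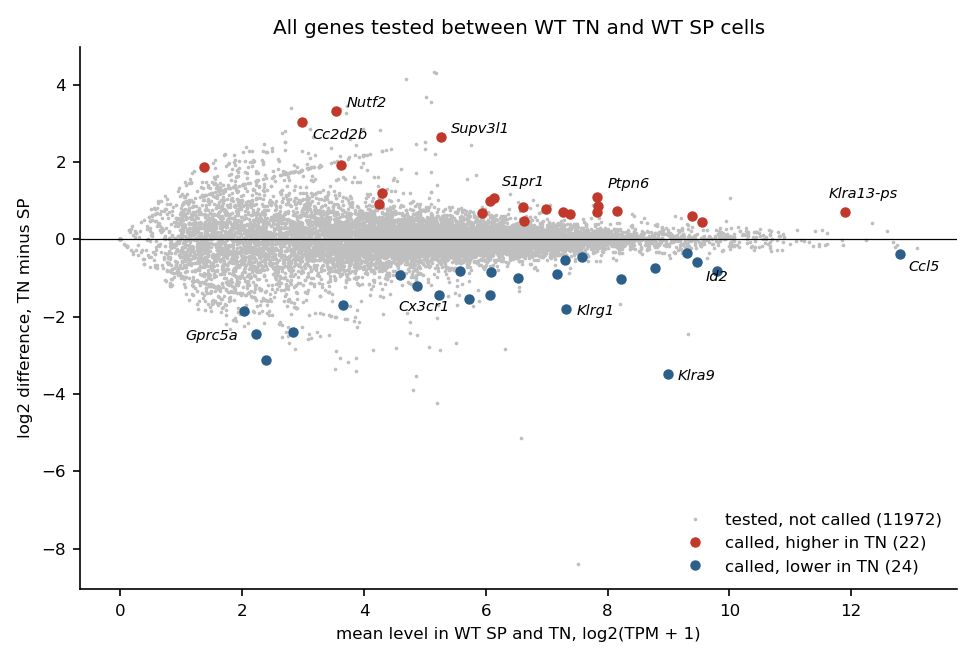
Each point is 1 of the 12018 genes tested; the horizontal axis is the mean level over WT SP and TN libraries as log2(TPM + 1) and the vertical axis the log2 difference, TN minus SP. The 22 genes called higher in TN are red and the 24 called lower are blue, and Klra9, at -3.47, is the largest called fall.

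In the plot of all genes, the called genes spread over the whole range of levels, from Pex11a at the low end to Ccl5 at the high end. The largest difference of all, -8.41 for ND3, was not called (adjusted p = 0.113). A group of 15 called genes kept its call in each of the 6 fits that left out 1 library: Klra9, Klrg1, Kcnj8, Klra13-ps, Id2, Ctla2a, S1pr1, Cx3cr1, Supv3l1, Ptpn6, Klra7, Sla, Ighm, Rap1b and Gprc5a. With only the 2 groups fitted, Klra9, Klrg1 and Klra13-ps kept their calls and the others of these 15 lost theirs. With only the WT libraries fitted, S1pr1, Supv3l1, Ptpn6, Klra7, Rap1b and Gprc5a lost their calls, so these calls depend on the spread in KO libraries too. None of the 46 changed sign under any of the 16 alternative settings.

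Within the Ly49 family, 1 gene besides Klra9 was called, and it was higher in TN cells. Of 11 Ly49 genes, 9 passed the filter; Klra2 and Klra17 did not. The 2 calls among these 9 include the sort gene Klra9, and 0.383% of all genes were called. With Klra9 counted, 5 of 9 (55.6%) had an unadjusted p under 0.05, 4 higher and 1 lower in TN, against 12.1% of all genes. The gene lists here and below were chosen with earlier results of these data known, so nothing is read from their shares. Klra7 (ENSMUSG00000067599), which encodes the inhibitory receptor Ly49G, was at 766, 729 and 928 TPM in TN and 537, 559 and 483 TPM in SP libraries. All TN libraries were higher, and the log2 difference of 0.61 ± 0.09 (SE) was called (adjusted p = 0.00361). The 7 uncalled members all had higher fitted values in TN, so 8 of 9 lay above 0 with a median log2 difference of 0.42, against a median of -0.0023 over all genes tested. Of these, Klra3 and Klra8 had values below 0 under quantile normalization (-0.0269 and -0.0063), and Klra3, Klra6 and Klra8 did so when some single libraries were left out. Klra4, which encodes the activating receptor Ly49D, was at 1153 ± 184 in TN and 823 ± 113 TPM in SP cells (SD, n = 3; log2 difference 0.48, adjusted p = 0.133). Klra1, for the inhibitory receptor Ly49A, was at 126 ± 30.2 and 83.5 ± 15.5 TPM (0.58, adjusted p = 0.193). Klra10 was at 326 ± 26.8 and 244 ± 39.8 TPM (0.42, adjusted p = 0.241). Klra8, for the activating receptor Ly49H, was nearly level at 1566 ± 113 and 1546 ± 145 TPM, with a log2 difference of 0.02 (95% interval -0.28 to 0.32). The lower-level members Klra5 and Klra6 had differences of 0.49 and 0.12 with adjusted p of 0.609 and 0.914.

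**Figure D2:**
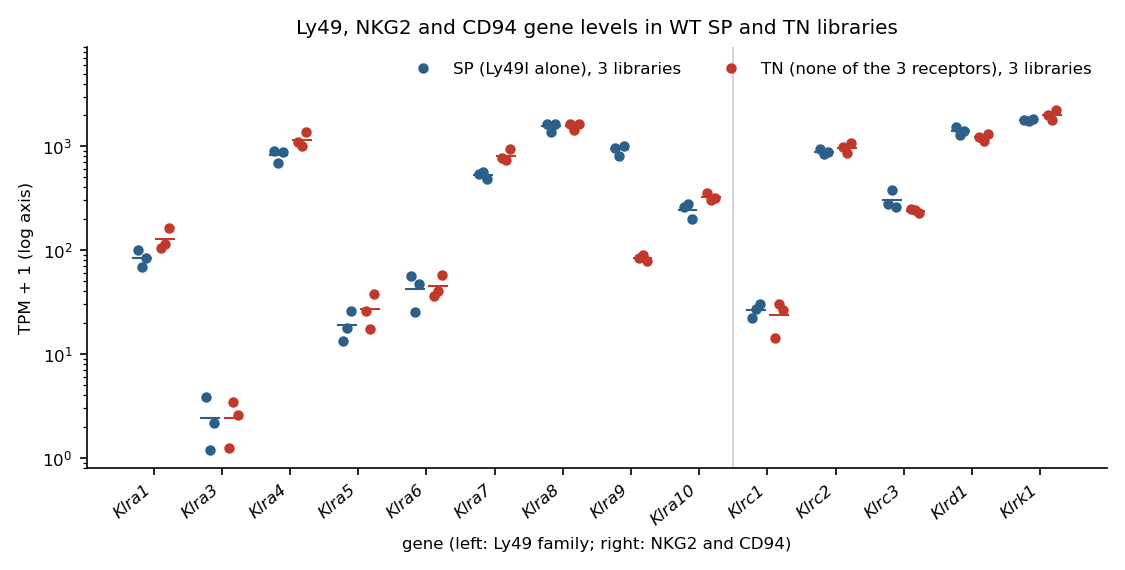
TPM + 1 on a log axis for each Ly49 gene (left) and each NKG2 or CD94 gene (right) that passed the filter; points are WT libraries, 3 SP in blue and 3 TN in red, and bars are means. Klra9 is the one gene with a wide gap, with a mean of 928 TPM in SP against 82.4 TPM in TN.

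The pseudogene Klra13-ps, named here after its values were seen since the naming rule left out pseudogenes, followed Klra7. It was at 4832, 4258 and 5056 TPM in TN and 3027, 2740 and 2937 TPM in SP libraries, a log2 difference of 0.70 ± 0.08 (SE; adjusted p = 0.000311). No TN library fell near the SP range. These genes share sequence: 14.7% of the 50-base stretches of Klra7 occur in Klra13-ps and 13% of those of Klra13-ps occur in Klra7. The division of reads between them is uncertain, and their calls are not independent. Among Ly49 members the shared portion was 39.8% for Klra10 and 33.1% for Klra8, so the division of reads among these genes is uncertain too.

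The NKG2 and CD94 genes gave no call. Klrd1, which encodes CD94, the partner of NKG2A, was at 1215 ± 95.9 in TN and 1402 ± 122 TPM in SP cells (SD, n = 3; log2 difference -0.21, adjusted p = 0.356). Klrc3, for NKG2E, was at 239 ± 10.8 and 302 ± 62.8 TPM (-0.32, adjusted p = 0.409), and 41.1% of its 50-base stretches occur in other genes. Klrk1, for the activating receptor NKG2D, was at 1988 ± 224 and 1784 ± 39.3 TPM (0.15, adjusted p = 0.454), and Klrc2, for NKG2C, at 969 ± 97.0 and 884 ± 53.7 TPM (0.13, adjusted p = 0.595). An unadjusted p under 0.05 in limma was found for 2 of 5 genes (40%), 0 higher and 2 lower in TN, against 12.1% of all genes. These were Klrd1 and Klrc3, and only the Klrc3 groups did not overlap. With 3 libraries a group, no member of this family was called.

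Klrg1 had the smallest p of the called genes after Klra9. It encodes an inhibitory receptor for cadherins that is typical of mature NK cells. Klrg1 (ENSMUSG00000030114) was at 78.8, 61.6 and 69.3 TPM in TN and 298, 218 and 223 TPM in SP libraries. Every SP library was far above every TN library, and the means of 69.9 ± 8.63 and 246 ± 45.0 TPM (SD) differed 3.52-fold, with a log2 difference of -1.79 ± 0.14 (SE; adjusted p = 2.68e-06). Klrb1 (ENSMUSG00000079299), which encodes an NKR-P1 family lectin-like receptor, went the other way, at 97.0, 79.2 and 106 TPM in TN and 44.9, 35.5 and 52.5 TPM in SP libraries. The groups did not overlap, and the log2 difference of 1.08 ± 0.18 (SE) was called (adjusted p = 0.0105), except without SP replicate 2 (adjusted p = 0.0556). Of 12 inhibitory and checkpoint receptor genes tested, these were the 2 called, 1 in each direction, against 0.383% of all genes. An unadjusted p under 0.05 was found for 5 of the 12 (41.7%), 3 higher and 2 lower in TN, against 12.1% of all genes. The 4 uncalled genes with the smallest p were Klrb1b at 123 ± 13.3 in TN and 156 ± 6.74 TPM in SP cells, Klri1 at 37.0 ± 5.72 and 22.1 ± 6.87 TPM, Tigit at 38.7 ± 13.3 and 22.6 ± 7.66 TPM, and Cd96 at 77.6 ± 10.4 and 91.5 ± 8.98 TPM. Their adjusted p ranged from 0.217 to 0.442. Pdcd1, Havcr2 and Ctla4, the genes of the checkpoint receptors PD-1, TIM-3 and CTLA-4, were below the filter.

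Among 20 genes of activating receptors and their adaptors, 1 was called (0.383% of all genes were), and 8 of 20 (40%) had an unadjusted p under 0.05, 3 higher and 5 lower in TN, against 12.1% of all genes. Cd226 (ENSMUSG00000034028), which encodes DNAM-1, an activating receptor for nectin-family ligands, was at 15.5, 21.8 and 19.6 TPM in TN and 60.5, 59.7 and 41.4 TPM in SP libraries. The highest TN value lay well under the lowest SP value, and the log2 difference was -1.45 ± 0.24 (SE; adjusted p = 0.0100). The call was lost without TN replicate 1 (adjusted p = 0.0501) and without SP replicate 2 (adjusted p = 0.0538). Tigit and Cd96, whose products share ligands with DNAM-1, were the uncalled receptor genes given above. The next 4 by p were Klri2, Fcgr3, Fcer1g and Klrb1f, with log2 differences of 0.20, -0.33, -0.17 and 0.21 and adjusted p from 0.231 to 0.280. Ncr1, which encodes NKp46, the main activating receptor shared by all mouse NK cells, was among the genes without a call, at 1924 to 1963 TPM in TN and 2023 to 2213 TPM in SP libraries.

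Ptpn6 was the called gene among 29 genes of receptor signalling, while 0.383% of all genes were called. Ptpn6 encodes SHP-1, the tyrosine phosphatase that inhibitory receptors such as Ly49 and NKG2A recruit. Ptpn6 (ENSMUSG00000004266) was at 357, 298 and 266 TPM in TN and 122, 192 and 120 TPM in SP libraries. The groups did not overlap, and the TN mean was 2.12 times the SP mean, with a log2 difference of 1.11 ± 0.16 (SE; adjusted p = 0.00356). SP replicate 2 was the highest of its group. The uncalled genes with the smallest p all had higher values in TN. Rasgrp1, an activator of Ras, was at 104 ± 9.57 in TN and 77.1 ± 6.08 TPM in SP cells, and the kinase genes Zap70, Lyn and Syk were at 245 ± 12.0, 72.3 ± 25.7 and 243 ± 0.835 TPM in TN against 206 ± 10.6, 48.7 ± 3.11 and 215 ± 6.71 TPM in SP cells. Adjusted p for these 4 ranged from 0.193 to 0.357. Over the list, 7 of 29 genes (24.1%) had an unadjusted p under 0.05, 6 higher and 1 lower in TN, against 12.1% of all genes. Sla, named after its values were seen, encodes an adaptor that lowers antigen receptor levels in lymphocytes, and it was at 368, 325 and 368 TPM in TN and 217, 231 and 190 TPM in SP libraries (log2 difference 0.73 ± 0.11 SE, adjusted p = 0.0038).

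Genes of maturation and homing held the largest number of calls of any list, though the lists differ in size. Of 27 genes, 24 passed the filter; Id3, Cxcr6 and Ccr7 did not. Among the calls, Cd27 and S1pr1 rose in TN cells, and Id2, Cx3cr1 and Ly6c2 fell, while 0.383% of all genes were called. In all, 15 of 24 (62.5%) had an unadjusted p under 0.05, with 6 higher and 9 lower, against 12.1% of all genes, and the same 15 were those whose libraries did not overlap, against 11.4% of all genes. The median log2 difference of the list was -0.17, with 8 values above 0 and 16 below. Since this list too was chosen with earlier results known, nothing is read from these shares.

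S1pr1 (ENSMUSG00000045092) encodes the sphingosine-1-phosphate receptor that guides lymphocytes out of tissue. It was at 92.6, 87.1 and 84.1 TPM in TN and 46.5, 41.8 and 43.0 TPM in SP libraries, so the groups were tight and apart, with a 2.01-fold ratio of means and a log2 difference of 0.99 ± 0.13 (SE; adjusted p = 0.00121). S1pr5, which encodes the sphingosine-1-phosphate receptor typical of mature NK cells, lay the other way at 326 ± 18.3 in TN and 428 ± 31.9 TPM in SP cells (SD, n = 3), without a call (adjusted p = 0.0789). Cx3cr1 (ENSMUSG00000052336), the fractalkine receptor gene of late mature NK cells, was at 32.5, 24.2 and 21.4 TPM in TN and 104, 69.9 and 60.5 TPM in SP libraries. The lowest SP library was well above the highest TN library, and the log2 difference was -1.53 ± 0.20 (SE; adjusted p = 0.00121). Id2 (ENSMUSG00000020644), a transcription regulator needed for NK cell development, was at 501, 560 and 640 TPM in TN and 893, 815 and 836 TPM in SP libraries (-0.59 ± 0.07 SE, adjusted p = 0.00108). Ly6c2 (ENSMUSG00000022584), which encodes the surface antigen Ly6C, was at 698, 657 and 567 TPM in TN and 1146, 1122 and 1118 TPM in SP libraries. All SP libraries were above all TN libraries, and the log2 difference was -0.82 ± 0.15 (SE; adjusted p = 0.0192). Ly6c2 lost its call in 4 fits, those without TN replicate 3, SP replicate 1, SP replicate 2 or SP replicate 3, with adjusted p up to 0.0757, and 13.3% of its 50-base stretches occur in other genes.

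The uncalled maturation genes with the smallest p were Thy1, S1pr5, Eomes and Klf2. Thy1 was at 58.6, 35.0 and 57.6 TPM in TN and 75.4, 182 and 145 TPM in SP libraries (log2 difference -1.34 ± 0.30 SE, adjusted p = 0.0763). Eomes, a T-box transcription factor gene of the NK lineage, was at 531 ± 38.7 in TN and 421 ± 9.03 TPM in SP cells (SD, n = 3; adjusted p = 0.110). Klf2, which encodes a factor that governs lymphocyte trafficking, was at 482 ± 41.4 and 619 ± 39.1 TPM (adjusted p = 0.128). None of these reached the threshold, and the direction of each is a value only.

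Effector genes were high in both groups. Ccl5 (ENSMUSG00000035042), a chemokine gene, was at 6666, 6319 and 5676 TPM in TN and 8427, 7477 and 8414 TPM in SP libraries. The groups did not overlap, and the log2 difference of -0.38 ± 0.08 (SE) was the only call among 20 effector genes (adjusted p = 0.0362). Of all genes, 0.383% were called. Ccl5 lost its call without TN replicate 2, TN replicate 3, SP replicate 1 or SP replicate 3 (adjusted p up to 0.0981). Its call was also lost under quantile normalization (adjusted p = 0.368), median-of-ratios scaling (0.0624), no filter (0.266) and no variance trend (0.175). In all, Ccl5 was called in 6 of the 16 alternative settings. The granzyme genes Gzmb and Gzma and the perforin gene Prf1, which make up the killing machinery, were at 710 ± 51.0, 7987 ± 239 and 1228 ± 105 TPM in TN and 912 ± 36.2, 9360 ± 266 and 1480 ± 118 TPM in SP cells. Their adjusted p were 0.0777, 0.136 and 0.155, so none was called. Nkg7, a cytotoxic granule gene, had adjusted p of 0.321. Over the list, 7 of 20 genes (35%) had an unadjusted p under 0.05, 1 higher and 6 lower in TN, against 12.1% of all genes, while the median log2 difference was 0.0017.

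No gene was called among 15 activity-induced genes, 11 regulators of anergy and exhaustion, 13 cytokine receptor genes or 10 cell cycle genes. At an unadjusted p under 0.05 in limma there were 2, 1, 3 and 1 genes of these lists, which is 13.3%, 9.09%, 23.1% and 10% against the 12.1% of all genes. Nr4a1, an immediate early gene of receptor stimulation, was at 12.2, 16.4 and 15.9 TPM in TN and 22.9, 26.2 and 20.1 TPM in SP libraries, and Egr1 was at 6.31, 12.7 and 8.80 and at 17.7, 19.3 and 13.1 TPM. For both genes the SP libraries lay above the TN libraries, with adjusted p of 0.438 and 0.390. Ier2 and Tnfaip3, at 94.1 ± 5.31 and 56.2 ± 4.77 in TN and 120 ± 15.0 and 64.4 ± 4.94 TPM in SP cells, were the other early response genes with small p. Bach2, a transcriptional repressor gene, was at 36.8, 39.7 and 48.4 TPM in TN and 26.1, 26.6 and 16.6 TPM in SP libraries (log2 difference 0.84, adjusted p = 0.234). Maf, Ikzf2 and Nfatc2 had log2 differences of -0.40, 0.86 and 0.18 and adjusted p from 0.448 to 0.659. The cytokine receptor genes Il18r1, Il21r, Il18rap and Il12rb1 had log2 differences of 0.24, -0.57, -0.17 and 0.40 and adjusted p from 0.173 to 0.457.

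Several of the largest called falls lay outside the lists. Kcnj8 (ENSMUSG00000030247), which encodes the pore of an ATP-sensitive potassium channel, was at 45.0, 36.6 and 25.8 TPM in TN and 102, 106 and 83.1 TPM in SP libraries. The groups were well apart, with a 2.71-fold ratio of means and a log2 difference of -1.44 ± 0.16 (SE; adjusted p = 0.000282). S100a6, for a calcium-binding protein, was at 229, 176 and 187 TPM in TN and 362, 378 and 456 TPM in SP libraries (-1.01, adjusted p = 0.0100; 0.0575 without SP replicate 3). Phactr3, whose product binds actin and protein phosphatase 1, was at 47.5, 65.6 and 68.7 TPM in TN and 120, 121 and 123 TPM in SP libraries (-1.01, adjusted p = 0.0423). Rgs1, a regulator of G protein signalling, was at 15.5, 13.2 and 20.9 TPM in TN and 28.4, 50.1 and 40.9 TPM in SP libraries (-1.21, adjusted p = 0.0423). Each of these genes had non-overlapping groups. Phactr3 kept its call only without TN replicate 3 and Rgs1 only without TN replicate 3 or SP replicate 1, with adjusted p up to 0.137 and 0.172 otherwise.

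The other large falls concerned genes at low levels. Gprc5a (ENSMUSG00000046733), an orphan G protein-coupled receptor gene, was at 0.96, 0.10 and 0.37 TPM in TN and 6.05, 5.57 and 9.11 TPM in SP libraries, with a log2 difference of -2.44 ± 0.39 (SE; adjusted p = 0.00854). P2rx1, for an ATP-gated ion channel, was at 0.30, 0.91 and 1.17 TPM and at 5.60, 4.15 and 6.30 TPM (-1.84, adjusted p = 0.0258). Cycs, for cytochrome c, was at 4.16, 4.67 and 5.47 TPM and at 19.0, 11.9 and 24.6 TPM (-1.71, adjusted p = 0.0312). The TN libraries were below the SP libraries in each case. Stac3, an adaptor gene known from muscle, was listed at 0, 1.30 and 3.05 TPM in TN and was at 6.58, 16.8 and 9.24 TPM in SP libraries (adjusted p = 0.0364). P2rx1 kept its call without TN replicate 2 or 3, Cycs without TN replicate 3 or SP replicate 2, and Stac3 without TN replicate 3 or SP replicate 1. Left-out libraries raised their adjusted p to as much as 0.0919, 0.0989 and 0.156, and 28.2% of the 50-base stretches of Cycs occur in other genes.

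Among the largest called rises, Supv3l1 (ENSMUSG00000020079), which encodes a mitochondrial RNA helicase, was at 55.4, 99.1 and 40.2 TPM in TN and 14.7, 4.75 and 9.56 TPM in SP libraries. The spread within TN was wide, yet the groups were apart, with a log2 difference of 2.64 ± 0.38 (SE; adjusted p = 0.0031). Spint2, for a membrane serine protease inhibitor, was at 30.6, 27.1 and 21.6 TPM in TN and 10.2, 11.2 and 11.2 TPM in SP libraries (1.20, adjusted p = 0.0139; 0.0656 without TN replicate 1). Cmah, for the enzyme that makes N-glycolylneuraminic acid, was at 135, 129 and 107 TPM in TN and 78.0, 72.7 and 57.4 TPM in SP libraries (0.83, adjusted p = 0.011; up to 0.0576 without TN replicate 1 or SP replicate 3). Ctla2a, for a cysteine protease inhibitor, was at 274, 275 and 342 TPM in TN and 165, 157 and 162 TPM in SP libraries (0.87, adjusted p = 0.00108), and 30.1% of its 50-base stretches occur in other genes. These 4 genes had no overlap between groups.

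Cd28, for the T cell costimulatory receptor, was at 24.3, 20.0 and 27.2 TPM in TN and 13.6, 11.1 and 11.8 TPM in SP libraries (log2 difference 0.91, adjusted p = 0.0192). Ltb, for the cytokine lymphotoxin beta, was at 15.6, 13.9 and 25.7 TPM and at 6.25, 5.10 and 1.75 TPM (1.92, adjusted p = 0.0345). Cc2d2b was at 12.2, 11.4 and 15.5 TPM and at 0.94, 1.10 and 0.24 TPM (3.02, adjusted p = 0.0312). The TN libraries were above the SP libraries for all 3 genes, but the calls depended on single libraries. Cd28 kept its call without TN replicate 2 or SP replicate 1, Ltb without TN replicate 2 or SP replicate 1, and Cc2d2b in no fit that left out 1 library, with adjusted p up to 0.0738, 0.0978 and 0.09. Nutf2, whose product imports Ran into the nucleus, was at 33.4, 24.1 and 3.94 TPM in TN and 2.16, 0.38 and a listed 0 TPM in SP libraries (3.31, adjusted p = 0.0373), and Pex11a, for a peroxisome division protein, was at 3.16, 1.99 and 4.09 TPM in TN against 0.33, 0 and 0 TPM. Leaving out a library raised these adjusted p to as much as 0.13 and 0.116; Nutf2 kept its call without TN replicate 3 or SP replicate 1 and Pex11a without TN replicate 2. Nutf2 shares 91.1% of its 50-base stretches with other genes, and its near copy Nutf2-ps1 had values in the opposite direction, at 26.5, 29.3 and 32.6 TPM in TN and 44.4, 59.4 and 42.1 TPM in SP libraries, so the Nutf2 values are uncertain.

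**Figure D3:**
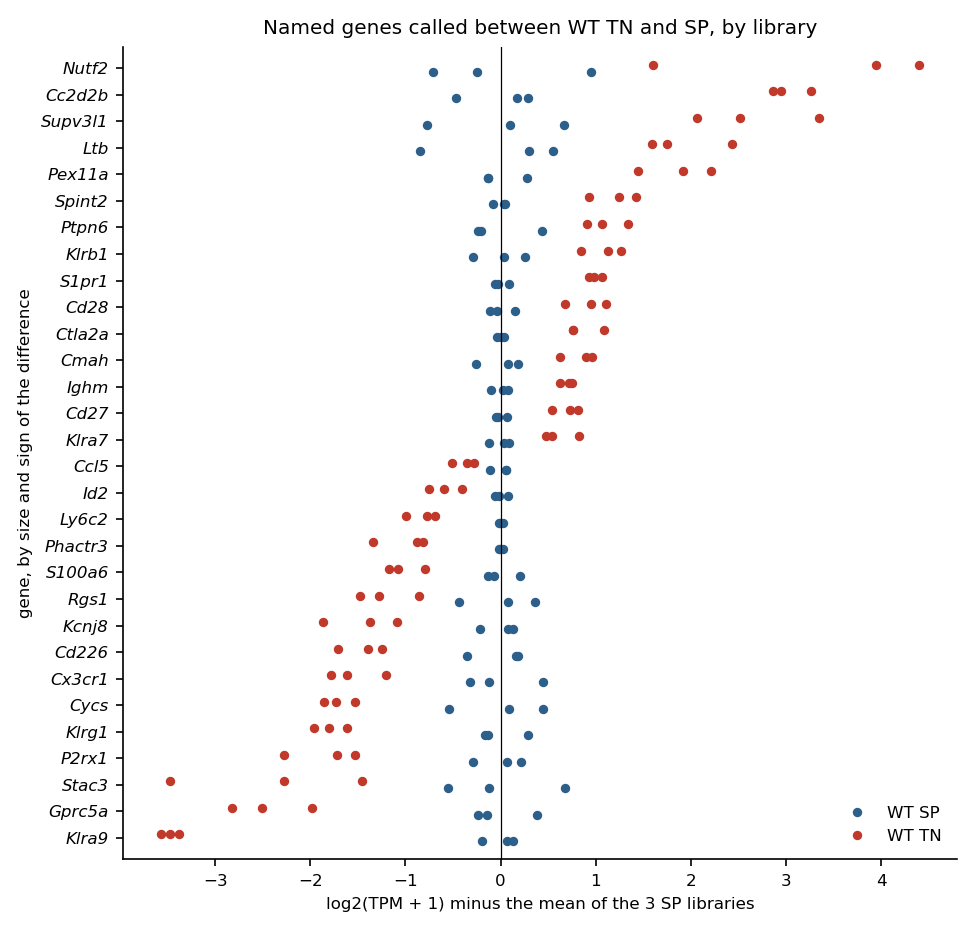
Level of each named called gene in each WT library, as log2(TPM + 1) minus the mean of the 3 SP libraries (horizontal axis); blue points are SP and red points TN. Genes run from the largest fall (Klra9, -3.47) to the largest rise (Nutf2, 3.31), and the SP and TN points of each gene do not overlap, which holds for all 46 called genes.

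In the plot of named genes by library, the tight genes Klra9, S1pr1, Ighm and Ly6c2 contrast with Nutf2, Supv3l1 and Stac3, whose TN libraries scatter. The other 14 called genes outside the naming rule were Rap1b, Gpc1, Hopx, Zfp512, Tram1, Itpk1, Ubxn8, Atg13, Igf2r, Tomm6, Pglyrp1, Cnn2, Gm3650 and Itgax, listed after their values were seen. Rap1b, which encodes a small GTPase of integrin activation, was at 360, 271 and 354 TPM in TN and 621, 526 and 504 TPM in SP libraries (log2 difference -0.75 ± 0.12 SE, adjusted p = 0.00532). Gm3650 and Tomm6 share 92.8% and 77.2% of their 50-base stretches with other genes, so their values are uncertain.

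Ighm (ENSMUSG00000076617), the constant region gene of immunoglobulin M, was called higher in TN cells. It was at 285, 291 and 268 TPM in TN and 161, 182 and 176 TPM in SP libraries, a log2 difference of 0.70 ± 0.10 (SE; adjusted p = 0.0038). Ighm is 1 of 9 markers of B and plasma cells that were read. The summed level of the 9 was 281 to 337 TPM in TN and 181 to 191 TPM in SP libraries, and without Ighm it was 1.56 to 52.8 and 8.32 to 19.5 TPM. Ebf1 was at 0 in all 6 libraries, and Cd79a and Ms4a1 were below the filter. Of the 9 markers, 5 passed the filter, Ighm among them. The sums without Ighm overlapped between the groups, and the highest, 52.8 TPM, was that of TN replicate 1. Whether B cells contributed to the Ighm level was not tested.

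Markers of other cells that a spleen sort could hold were low in both groups. The 5 NK markers summed to 5358 to 5709 TPM in TN and 5401 to 6067 TPM in SP libraries. The 7 T cell markers summed to 3.3 to 12.2 and 0 to 13.1 TPM, with Cd8a, Cd8b1 and Cd5 at 0 in all 6 libraries. The 6 neutrophil markers reached at most 1.05 and 1.11 TPM, with S100a8, S100a9, Ngp, Ltf and Mpo at 0. The 9 macrophage and dendritic cell markers summed to 11.1 to 19.7 and 7.02 to 25.7 TPM, with Adgre1, Vcam1 and Siglech at 0. The 4 erythroid markers present summed to 2.76 to 43.0 and 0 to 24.8 TPM, and the 6 markers of type 1 innate lymphoid cells to 2.95 to 6.42 and 1.62 to 4.53 TPM. None of these sums separated the groups. In bulk RNA, fewer cells with a transcript and less transcript per cell cannot be told apart.

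The same sort in B2m-/- mice shares no library with the WT comparison. There, TN against SP gave 5 called genes, 0.0416% of the genes tested. Klra9, Klrg1 and Klrb1b were lower and Klra13-ps and Tcf7 higher in KO TN cells. An unadjusted p under 0.05 was reached by 333 genes in KO, or 2.77%, against 12.1% in WT. Both shares rest on a spread estimated over all 6 groups. With only WT TN and SP libraries fitted, 755 of 11885 genes reached it in WT. Whether the KO and WT shares differ was not tested. Of the 46 genes called in WT, 37 (80.4%) had the same sign in KO, against 52.2% of all genes, and 18 of these also had an unadjusted p under 0.05 in KO. No called gene had the opposite sign with an unadjusted p under 0.05. Among falls, 19 of 24 had the same sign and 12 of them an unadjusted p under 0.05, and among rises 18 of 22 and 6. The KO difference was smaller in size for 45 of the 46, but these genes were chosen for their size in WT, so nothing is read from that count.

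**Figure D4:**
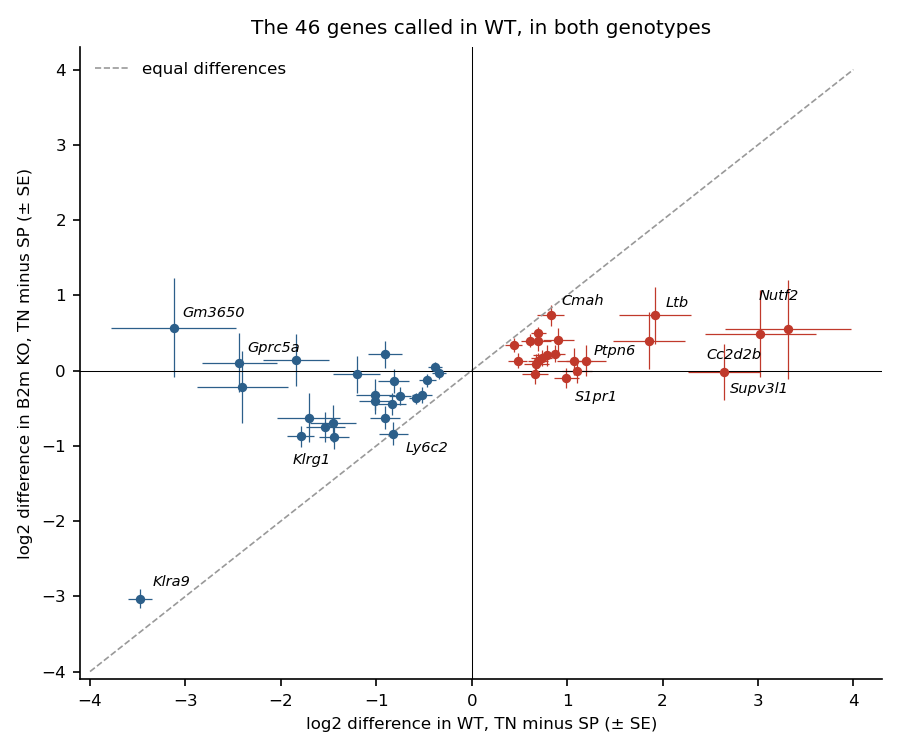
The 46 genes called in WT: log2 difference, TN minus SP, in WT (horizontal) and in B2m-/- libraries (vertical), each with its SE; red points rose and blue points fell in WT. Ly6c2 and Cmah lie close to the dashed line of equal differences, and Klra9 (-3.47 in WT, -3.03 in KO) lies further from it. S1pr1, Ptpn6 and Supv3l1 lie near 0 on the vertical axis.

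Klra9 was at 1191, 1199 and 1498 TPM in KO SP and 172, 129 and 174 TPM in KO TN libraries, a log2 difference of -3.03 (adjusted p = 2.68e-10). Klrg1 was at 85.4, 74.7 and 87.7 TPM in KO SP and 45.1, 37.2 and 52.4 TPM in KO TN libraries (-0.88, adjusted p = 0.0217). The groups of both genes were apart in KO as in WT, at lower Klrg1 levels throughout. Ly6c2 and Cmah had nearly the same difference in both genotypes, at -0.82 and 0.83 in WT and -0.84 and 0.73 in KO, though neither was called in KO (adjusted p = 0.0601 and 0.0941). Kcnj8, with -0.88 in KO, had an adjusted p of 0.0601. Tcf7, a transcription factor gene of early lymphocytes, was called in KO with a log2 difference of 0.71 (adjusted p = 0.0132), against 0.37 in WT (adjusted p = 0.155). Klrb1b, for an inhibitory NKR-P1 receptor, was at 399 ± 47.2 in SP and 224 ± 10.0 TPM in TN cells of KO mice (SD, n = 3; -0.82, adjusted p = 0.00653).

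Whether the TN against SP difference depended on the genotype was tested by the contrast of both differences. No gene was called in limma, and 675 genes, or 5.62%, had an unadjusted p under 0.05. The smallest adjusted p was 0.134, held by S1pr1 and by the small RNA gene Gm22192. S1pr1 was at 46.5, 41.8 and 43.0 TPM in WT SP cells and at 138, 153 and 164 TPM in KO SP cells, while KO TN cells were at 129, 136 and 162 TPM. The WT difference of 0.99 therefore stood beside a KO difference of -0.10, and the contrast was 1.09 ± 0.18 (SE; adjusted p = 0.134). Ptpn6 showed a like set of levels, at 326, 328 and 289 TPM in KO SP and 363, 309 and 271 TPM in KO TN libraries (contrast 1.11 ± 0.23 SE, adjusted p = 0.335). Leaving out SP replicate 2 of WT made Ptpn6 a call (contrast 1.33, adjusted p = 0.0263). For Klrg1 the contrast was -0.92 ± 0.20 (SE; adjusted p = 0.424). A difference between genotypes in any of the named genes was thus not called with all libraries.

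**Figure D5:**
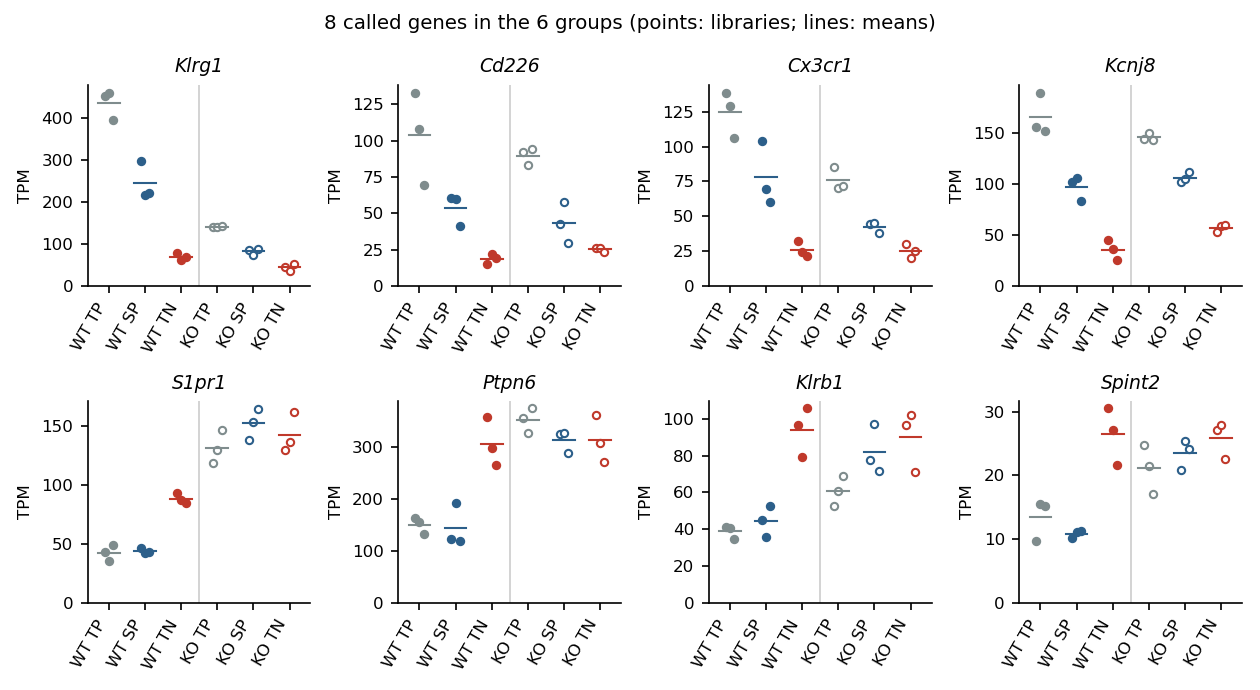
TPM of 8 called genes in the 6 groups, with points for libraries and lines for means; filled points are WT and open points B2m-/-. Klrg1, Cd226, Cx3cr1 and Kcnj8 (top) descend from TP over SP to TN in both genotypes by their means, while S1pr1, Ptpn6, Klrb1 and Spint2 (bottom) are higher in WT TN than in WT SP and differ by at most 0.13 on the log2(TPM + 1) scale between KO TN and KO SP. The 8 genes were picked by hand and do not stand for all called genes. Of 22 called rises, 6 had the same sign and an unadjusted limma p under 0.05 in KO. Of 24 called falls, 13 had a WT SP mean between the TP and TN means.

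TP cells, which carry all 3 receptors, give a further reference level. A comparison of TN with TP would share the TN libraries used here, so only levels are given. Klrg1 had WT means of 437 ± 34.6 TPM (TP), 246 ± 45.0 TPM (SP) and 69.9 ± 8.63 TPM (TN; SD, n = 3 each). Cx3cr1 followed with 125 ± 16.5, 78.1 ± 22.8 and 26.0 ± 5.74 TPM, and Cd226 with 104 ± 31.8, 53.9 ± 10.8 and 19.0 ± 3.20 TPM. SP cells were intermediate for these genes. S1pr1 was at 42.4 ± 7.03, 43.8 ± 2.47 and 87.9 ± 4.28 TPM, and Ptpn6 at 151 ± 16.0, 145 ± 40.7 and 307 ± 46.3 TPM, so that SP and TP cells stood together, apart from TN. For Klra13-ps the means stepped up from 1309 ± 98.7 (TP) over 2901 ± 147 (SP) to 4715 ± 412 TPM (TN). Over the 46 called genes, the SP mean lay between the TP and TN means for 24, 13 of 24 falls and 11 of 22 rises, and the TP mean was nearer to SP than to TN for 40. These genes were chosen for their gap between TN and SP, and the same counts were not made over all genes. Nothing is therefore read from them.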

How the data were processed

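RNA of sorted splenic NK cells was sequenced after poly(A) capture, per the labels' protocols. The authors deposited gene-level TPM, rounded to 2 decimals, for 18 libraries; the submitters' processing notes name STAR, RSEM and GRCm39, without roles or versions, and the annotation is not given in the sources used here. Depth cannot be recovered from TPM. The single batch label covers all 18 libraries.

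A gene was tested if its mean over these libraries reached 1 TPM. Analysis ran on log2(TPM + 1), a scale that shrinks differences of low genes, with limma 3.58.1 (R 4.3.3), 6 group means and variances moderated along an intensity trend. Tests were two-sided, with Benjamini-Hochberg adjustment over all 12018 genes for each contrast and a call at an adjusted p under 0.05. Fold ratios quoted are ratios of mean TPM.

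Named were the 12 largest rises and 12 largest falls among called genes without overlap (predicted genes, pseudogenes and small RNAs left out), called genes of the gene lists, the tested receptor families, and up to 4 uncalled members per list. The genes and lists were chosen with earlier results of these data known. Same-numbered WT libraries of TN and SP cells did not deviate together (mean correlation -0.0106, against 0.0054 for other pairs). In KO, same-numbered pairs ran from 0.0275 to 0.0703 (mean 0.048) and other pairs from -0.0558 to 0.0051 (mean -0.0239). Pairing by number is therefore possible in KO. The main fit used no pairing for either genotype, and a block by number was fitted as an alternative. Shared 50-base stretches were counted in GENCODE M21 transcripts, where all 46 called genes were matched; RefSeq promoters matched 30 of the 46. The procedure was tested on simulated data. Other libraries of the series were not analysed here.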

Additional observations from a re-analysis of the deposited data

How the results depend on the processing

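The count of 46 genes called between WT TN and SP cells stayed within 1.5 times under a replicate block (40), a pseudocount of 0.1 (57), no filter (39), a minimum of 5 TPM (45), quantile normalization (41), median-of-ratios scaling (47), no variance trend (39) and robust moderation (49). It fell to 6 with only the 2 groups fitted, 4 of them among the 46, and to 15 with only the WT libraries. Leaving out 1 library gave 23 (without WT SP replicate 2) to 54 (without WT TN replicate 3), with 29 without WT SP replicate 3. Klra9, Klrg1 and Klra13-ps were called under all 16 alternatives. For KO TN against SP, where 5 genes were called, the replicate block gave 8, no variance trend 1, and leaving out 1 library 3 (without KO TN replicate 3 or KO SP replicate 1) to 9 (without KO SP replicate 3). For the difference between genotypes, with 0 called, the fit without a filter gave 1 (Gm13818) and leaving out 1 library gave 0 to 2: both entries of the small RNA gene Gm22192 without WT TN replicate 2, Ptpn6 without WT SP replicate 2, Mir6948 without KO TN replicate 1 and Gm23301 without KO SP replicate 3. The cause was not tested. Whether a replicate number shared across groups marks the same mouse is not stated. With it as a block in limma, 31 of the 46 calls kept their call. Among the genes named by the rule, P2rx1, Cycs, Rgs1, Cc2d2b, Ltb and Pex11a lost theirs, with adjusted p from 0.0616 to 0.0704. Over the named genes, 550 alternative values kept direction and side of the threshold and 139 kept the direction but lost the call. The sign changed in 11, all of genes not called: Klra3 and Klra8 under quantile normalization (-0.0269 and -0.0063), and Klra3, Klra6, Klra8 and Klrc1 with some single libraries left out. Leaving out 1 library gave log2 differences of -0.37 (without WT SP replicate 2) to 0.49 (without WT TN replicate 1) for Klra3, -0.22 (without WT SP replicate 2) to 0.36 (without WT SP replicate 1) for Klra6, -0.0599 (without WT SP replicate 2) to 0.0821 (without WT TN replicate 2) for Klra8, and -0.45 (without WT TN replicate 2) to 0.10 (without WT TN replicate 1) for Klrc1.

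With 3 libraries a group and no read depth, small differences of low genes were not detectable. Near copies limit Nutf2, Gm3650, Tomm6 and Ly49 values. Sequence shared with other genes also limits Itgam, Klrc1 and Klrc3 values.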
